A study of Mus musculus with 10 samples.

Results

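The 9 genes described here, Dcp1a, Dcp2, Edc4, Xrn1, Zfp36l2, Pabpn1l, Ythdf1, Ythdf2 and Ythdf3, encode proteins of mRNA decapping, 5′ to 3′ decay, AU-rich element and poly(A) binding, and m6A reading. They were taken by gene name from a table of FPKM (fragments scaled to the exon length of a gene and to the mapped total of a library, so that levels can be compared between genes) with 21437 gene rows, and their values in all 10 libraries were used. Each had 1 row, and all 9 were among the 8726 genes that were tested, those reaching 1 FPKM in 2 or more libraries. Xrn1 and Ythdf1 met this minimum only through 4-cell libraries.

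Cytoplasmic mRNA decay usually starts with shortening of the poly(A) tail, after which the cap is cut off by DCP2, helped by its activator DCP1A and by the scaffold protein EDC4, and the RNA body is digested from the 5′ end by XRN1. Adaptor proteins choose the mRNAs: ZFP36L2 binds AU-rich elements, PABPN1L is an oocyte poly(A)-binding protein known as a partner of BTG4 in the clearance of maternal mRNA, and the YTHDF proteins bind m6A, a methyl mark on adenosines of mRNA. In the mouse the MII oocyte is transcriptionally silent. The mRNAs stored during its growth are cleared partly before and partly after the embryo switches on its own genome at the 2-cell stage. The comparisons asked how the mRNAs of this decay machinery themselves ran through this period, and whether their levels differed after knockdown of Ago2, the argonaute protein that cuts RNA guided by small RNAs.

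RNA-seq had been done on MII oocytes, on control 2-cell and 4-cell embryos, and on 2-cell and 4-cell embryos after Ago2 knockdown (Ago2 kd), with 2 libraries in each of the 5 groups. The labels name the strain ICR for every library, the genotype wild type for oocytes and control embryos and Ago2-kd for the others. By the growth protocol and the methods, oocytes came from superovulated 7-week-old ICR females and embryos from superovulated 7-week-old F1 females mated with F1 males, so that strain and stage cannot be told apart between oocytes and embryos. By the methods the knockdown was made by injecting zygotes with siRNAs against Ago2 together with AGO2 antibodies, and scrambled siRNA was the negative control. The labels do not say whether the control libraries came from injected embryos. The source is given as embryo blastomeres freed of the zona pellucida, also for the oocytes. The number of oocytes or embryos behind a library is not given in the sources used here, and Ago2 itself was not analysed here, so the knockdown was not checked at its target.

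No read counts were used, so depth is unknown and precision was judged from replicates. The summed FPKM was 450124 and 458874 in the MII libraries, 178681 to 205895 in 2-cell and 231654 to 326352 in 4-cell libraries, so a level in oocytes and one in embryos stand on different totals. In both MII libraries 22.2% and 23.5% of the values above 0 were written with more than 6 digits, against 1.4% to 1.82% in the other libraries. Among genes above 10 FPKM in one library of a group, 1.22% to 5.2% were below 0.1 FPKM in its partner, except for 4-cell Ago2 kd replicate 1, where 13.7% were. The summed FPKM of 8 oocyte markers was 6990 and 8550 in MII oocytes, 1150 to 1690 in 2-cell libraries, 10.8 and 5.95 in 4-cell controls and 41.2 and 23.9 after the knockdown at the 4-cell stage. The sum of the 6 measured 2-cell markers was 89.6 and 115 in MII oocytes and 321 to 810 in 2-cell libraries. It was 7.21 and 2.47 in 4-cell controls and 25.1 and 32 in 4-cell Ago2 kd libraries. Tcstv1, counted among these markers, read 71.6 and 81.5 FPKM in MII oocytes and 56.6 and 62.1 FPKM in 2-cell controls. The other measured 2-cell markers had higher means in 2-cell controls than in MII oocytes. The sum of 7 markers of the 4-cell and later stages was 73.8 to 173 before the 4-cell stage, 236 and 307 in 4-cell controls and 170 and 88.2 in 4-cell Ago2 kd libraries. Of these stage markers Tcstv3, of the 2-cell stage, was called higher in 4-cell Ago2 kd than in 4-cell control embryos (13.7 and 13.5 against 0.541 and 0.812 FPKM, adjusted p = 0.00485, limma) and Tead4, of the later stages, lower (0 and 0 against 16.5 and 40.1 FPKM, adjusted p = 0.00112). Tead4 passed the filter only through the 4-cell controls, and its groups listed at 0 add no spread to the estimate. The later markers did not all run alike: Nanog read 1.92 and 16.6 FPKM in 4-cell Ago2 kd against 6.43 and 5.2 in 4-cell control libraries. Pou5f1, also counted among them, was lower in 4-cell than in 2-cell controls (adjusted p = 0.0234, limma). The authors report Tead4 as lowered by Ago2 knockdown, so by Tead4 stage and knockdown cannot be told apart. The part of embryo stage in the 4-cell knockdown results was not tested. Of 11 cumulus and granulosa cell markers 4 had a row: their sum was 0 in both MII libraries, 1.75 to 5.4 in 2-cell libraries and 54.3 to 163 in 4-cell libraries, where Gja1 made up most of it, and the granulosa marker Foxl2 was listed at 0 in all libraries. The part of other cells in the results was not tested. Levels are shares of a library, so fewer cells carrying an mRNA and less of it per cell cannot be told apart.

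**Figure D1:**
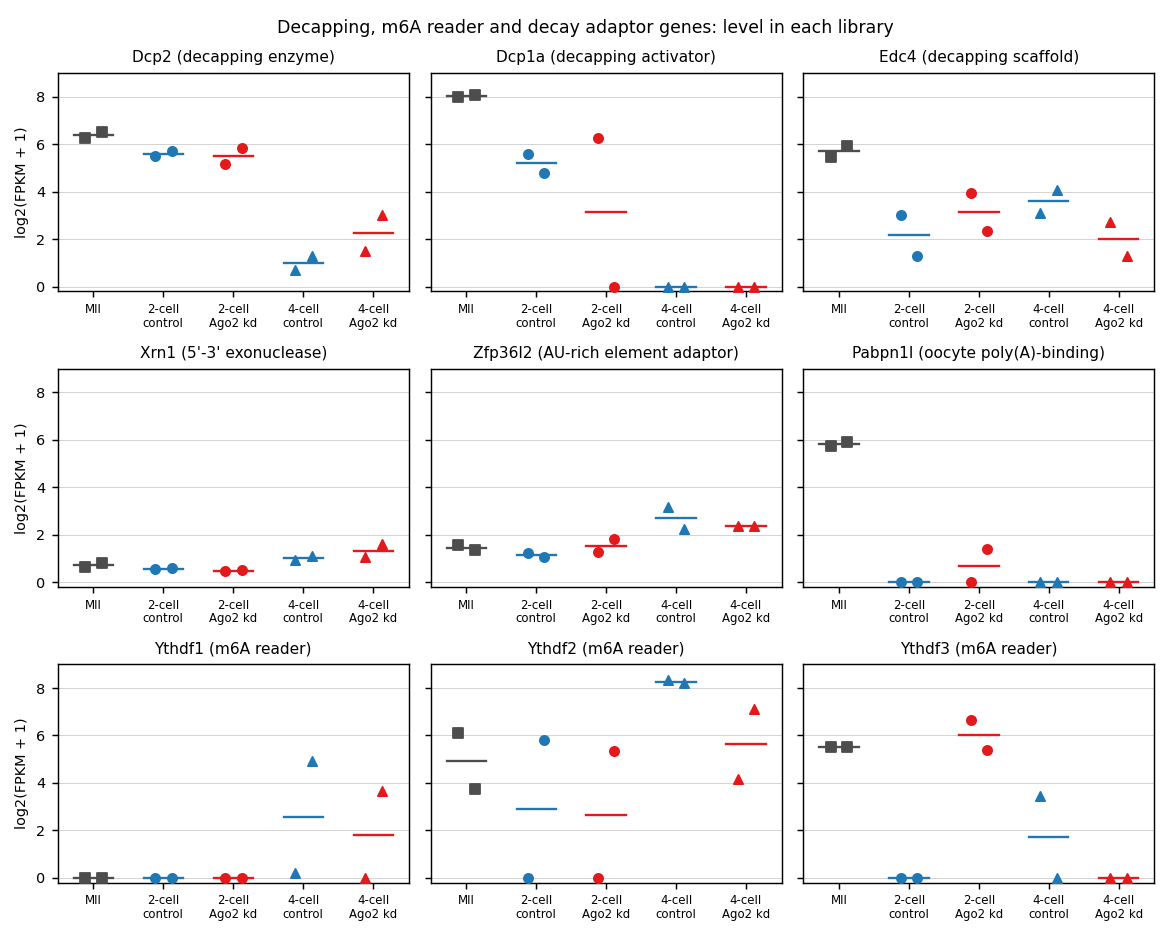
Level of each gene as log2(FPKM + 1) (vertical axis) in the 5 groups; each point is 1 library and each line the mean of 2. Dcp1a, Dcp2 and Pabpn1l were high in both MII libraries and low or listed at 0 in the 4-cell libraries, Ythdf2 was highest in the 4-cell control libraries at 320.3 and 297 FPKM, and Xrn1 stayed at or below 2.06 FPKM throughout.

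Dcp2 (ENSMUSG00000024472.9; GRCm38 chromosome 18, 44380502 to 44424969, plus strand), the enzyme that removes the cap, kept a high level up to the 2-cell stage and then fell steeply. Its level was 76.1 and 90.4 FPKM in MII oocytes, 44 and 51.7 FPKM in 2-cell controls and 0.626 and 1.44 FPKM in 4-cell controls. In FPKM as deposited the 2-cell libraries stood at 52.8% and 62.1% of the oocyte mean, but the difference of -0.79 on the log2(FPKM + 1) scale (95% confidence interval -2.11 to 0.54) did not pass the test (adjusted p = 0.406, limma). This difference was -0.16 with libraries scaled to equal medians and 0.22, in the opposite direction, with quantile normalization. From the 2-cell to the 4-cell control Dcp2 fell by 4.61 log2 units (SE 0.56, adjusted p = 0.00109), while the median of all tested genes shifted by +0.24. It ended at 0.752% and 1.73% of the oocyte mean, and the fall from MII oocyte to 4-cell embryo was 5.40 log2 units (SE 0.56, adjusted p = 0.000325). Both falls passed under every alternative run, with adjusted p of 0.000213 to 0.0124 and of 0.000192 to 0.00474.

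Dcp1a (ENSMUSG00000021962.9; chromosome 14, 30479535 to 30527063, plus strand), the activator of DCP2 and a common marker of P-bodies, the cytoplasmic granules that hold decapping factors, had the highest oocyte level of the 9 genes. It stood at 251 and 270.2 FPKM in MII oocytes and at 47.7 and 26.7 FPKM in 2-cell controls, and it was listed at 0 in both 4-cell control libraries. The 2-cell controls held 18.3% and 10.2% of the oocyte mean, and the groups of each step did not overlap. From MII oocyte to 4-cell embryo Dcp1a fell (adjusted p = 0.00808, limma), and this held in all 18 alternatives (adjusted p up to 0.0498); the separate steps had adjusted p of 0.328 to the 2-cell stage and 0.0523 from there to the 4-cell stage. Both step tests moved with the 2-cell Ago2 kd libraries, which enter the common estimate of the spread and read 77 and 0 FPKM: without replicate 1 of that group the adjusted p were 0.00552 and 0.000541, and without replicate 2 they were 0.00505 and 0.000502. With every library kept, the second step also passed with a pseudocount of 0.1 (0.0433) and a minimum of 5 FPKM (0.0462). Fits with only the groups compared, which drop the 2-cell Ago2 kd libraries, gave 0.0292 for the first step and 0.013 for the second (limma). Over all alternatives the adjusted p ran from 0.00505 to 0.622 and from 0.000502 to 0.183. The annotation also places Cacna1d on the opposite strand across part of Dcp1a; whether counting used strand is not given in the sources used here.

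Edc4 (ENSMUSG00000036270.16; chromosome 8, 105880881 to 105894908, plus strand), the scaffold that couples DCP1A to DCP2, fell early and did not fall again. It had 43.6 and 60.6 FPKM in MII oocytes, 7.1 and 1.48 FPKM in 2-cell controls and 7.67 and 16 FPKM in 4-cell controls. The fall from oocyte to 2-cell embryo was 3.55 log2 units (SE 0.86, adjusted p = 0.0278, limma). In FPKM as deposited the 4-cell controls lay above the 2-cell controls without overlap, by 1.44 log2 units. This difference did not pass (95% confidence interval -0.6 to 3.48, adjusted p = 0.235, limma). The groups overlapped with libraries scaled to equal medians and with quantile normalization. The early fall passed in 11 of 18 alternatives (adjusted p 0.0235 to 0.147, limma). It was lost without MII replicate 1, MII replicate 2 or 2-cell control replicate 2. The call was also lost with libraries scaled to an equal median (0.0778), quantile normalization (0.147), no filter (0.0598) and only the groups compared (0.0683). Of the 50-base stretches of Edc4 transcripts, 6.18% also stand in other genes, nearly all in Nrn1l, which overlaps it on the same strand.

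Xrn1 (ENSMUSG00000032410.13; chromosome 9, 95954760 to 96057803, plus strand), the main cytoplasmic 5′ to 3′ exonuclease, was low in every library. Its level was 0.556 and 0.749 FPKM in MII oocytes, 0.474 and 0.504 FPKM in 2-cell controls, 0.906 and 1.14 FPKM in 4-cell controls, and after Ago2 knockdown 0.372 and 0.411 FPKM at the 2-cell and 1.08 and 2.06 FPKM at the 4-cell stage. The SD within its groups was 0.192 log2 units; at levels near 1 FPKM the log2(FPKM + 1) scale compresses differences, so this SD is not comparable with that of abundant genes. No comparison of Xrn1 passed the test, and the widest stage difference, from 2-cell to 4-cell control, was 0.44 log2 units (95% confidence interval -0.2 to 1.08, adjusted p = 0.245). Its transcripts run up to 10256 bases and overlap 3 antisense genes.

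Zfp36l2 (ENSMUSG00000045817.8; chromosome 17, 84183931 to 84187947, minus strand), which binds AU-rich elements and brings the deadenylase to its targets, was the only member called higher at any step. It had 1.96 and 1.56 FPKM in MII oocytes, 1.37 and 1.09 FPKM in 2-cell controls, and 8.04 and 3.73 FPKM in 4-cell controls. The rise from 2-cell to 4-cell control was 1.56 log2 units (SE 0.44, adjusted p = 0.0295, limma), again beside a shift of +0.24 for the median gene. It passed in 9 of the 18 alternatives that kept the gene (adjusted p 0.0204 to 0.113). The call was lost with no filter (0.0509), quantile normalization (0.0808) and only the groups compared (0.113, limma). A fit without the MII libraries, added after seeing the data, lost it too (0.0594). Leaving out MII replicate 1 (0.0501), MII replicate 2 (0.0511), 2-cell control replicate 1 (0.0791), 2-cell control replicate 2 (0.103) or 4-cell control replicate 1 (0.107) ended the call. Against MII oocytes the 4-cell controls were higher by 1.25 log2 units with an adjusted p of 0.0512 (0.0253 without 4-cell control replicate 2; 0.0253 to 0.193 over 17 alternatives).

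Pabpn1l (ENSMUSG00000069867.3; chromosome 8, 122619471 to 122622739, minus strand) was present in oocytes and not listed above 0 in any control embryo library. It had 52.7 and 59.5 FPKM in MII oocytes and was listed at 0 in both 2-cell and both 4-cell control libraries. It was also listed at 0 in 3 of the 4 Ago2 kd libraries, and the other, 2-cell Ago2 kd replicate 2, read 1.63 FPKM, which is 2.91% of the oocyte mean. The adjusted p was 0.000391 from MII oocyte to 2-cell control and 0.00012 from MII oocyte to 4-cell control (limma), and Pabpn1l passed in all 18 alternatives of each comparison (adjusted p up to 0.0124 and 0.00334). No 50-base stretch of its transcripts stands in another gene, although the protein-coding gene Gm20388 overlaps it on the opposite strand.

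The promoters of a gene listed at 0 in controls from the 2-cell stage, of one listed at 0 from the 4-cell stage and of one that was highest at the 4-cell stage are shown for comparison, each from 250 bases before to 50 bases after the RefSeq start (GRCm38.p6) and written 5′ to 3′ on the strand of the gene. Capitals mark matches, on either strand, to the GC box core GGGCGG, the CAAT box core CCAAT or the TATA box core TATAAA; none of the matches in the windows shown overlap. Pabpn1l lies at chr8:122622686-122622985 (minus), Dcp1a at chr14:30479315-30479614 (plus) and Ythdf2 at chr4:132212207-132212506 (minus).
Pabpn1l promoter: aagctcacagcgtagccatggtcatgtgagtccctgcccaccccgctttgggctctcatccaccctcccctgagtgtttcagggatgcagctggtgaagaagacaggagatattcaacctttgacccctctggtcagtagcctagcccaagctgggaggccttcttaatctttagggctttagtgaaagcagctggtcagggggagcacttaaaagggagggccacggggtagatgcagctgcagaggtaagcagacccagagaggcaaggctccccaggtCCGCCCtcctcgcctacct
Dcp1a promoter: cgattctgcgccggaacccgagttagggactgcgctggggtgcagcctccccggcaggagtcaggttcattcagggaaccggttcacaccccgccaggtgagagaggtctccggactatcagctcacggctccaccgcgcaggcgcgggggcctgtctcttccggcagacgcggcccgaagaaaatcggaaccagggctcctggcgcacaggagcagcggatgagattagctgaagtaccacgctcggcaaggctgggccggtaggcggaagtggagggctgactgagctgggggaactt
Ythdf2 promoter: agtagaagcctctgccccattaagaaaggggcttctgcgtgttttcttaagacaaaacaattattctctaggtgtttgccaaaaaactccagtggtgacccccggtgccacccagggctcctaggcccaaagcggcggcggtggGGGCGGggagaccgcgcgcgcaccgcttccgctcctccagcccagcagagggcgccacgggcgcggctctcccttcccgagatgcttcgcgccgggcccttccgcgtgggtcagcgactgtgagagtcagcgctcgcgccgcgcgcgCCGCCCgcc
The Pabpn1l window held 5 CpG and 57.7% G and C, the Dcp1a window 25 CpG and 65.3%, and the Ythdf2 window 32 CpG and 66.3%, where the median of all 32851 promoters in the table was 52.7% G and C. GGGCGG was found once for Pabpn1l, on the opposite strand after the start, and 2 times for Ythdf2, while the Dcp1a window held none of the 3 motifs. Among all promoters of this length 35.7% hold GGGCGG, 37.4% CCAAT and 13.6% TATAAA, so these matches are a description of the windows. Of the other members, Ythdf1 had the window richest in G and C (70%), with 3 GGGCGG and 2 CCAAT, Xrn1 had 1 GGGCGG and Edc4 1 CCAAT. The table matched 6 of the 9 members; Dcp2, Zfp36l2 and Ythdf3 had no entry.

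Ythdf2 (ENSMUSG00000040025.17; chromosome 4, 132184912 to 132212303, minus strand), the m6A reader best known for sending marked mRNAs to decay, reached its highest levels in the 4-cell controls. It had 67 and 12.4 FPKM in MII oocytes, 0 and 54.8 FPKM in 2-cell controls, and 320.3 and 297 FPKM in 4-cell controls. The 4-cell controls held 807% and 749% of the oocyte mean and lay above every other library. The fitted difference from 2-cell to 4-cell control was 5.37 log2 units, but its 95% confidence interval ran from -0.25 to 11 and it did not pass (adjusted p = 0.12, limma; 0.0504 to 0.502 over 19 alternatives). The within-group SD of Ythdf2 was 2.76 log2 units, wider than that of 99.1% of the tested genes, where the median was 0.599. In 2-cell controls and in 2-cell Ago2 kd embryos alike, replicate 1 was listed at 0 and replicate 2 was not, at 54.8 and 39.4 FPKM.

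Ythdf3 (ENSMUSG00000047213.14; chromosome 3, 16183212 to 16217037, plus strand), a reader linked to both translation and decay, was highest in MII oocytes and in 2-cell Ago2 kd embryos. It had 45.3 and 44.2 FPKM in MII oocytes, was listed at 0 in both 2-cell controls, and had 10 and 0 FPKM in 4-cell controls. Only oocytes had it in both libraries of a control group. The fall from MII oocyte to 2-cell control passed the test (adjusted p = 0.0109, limma), as did that to the 4-cell control, of 3.79 log2 units (SE 1.04, adjusted p = 0.0213). The first call was lost when any 1 of the 4 libraries compared was left out (adjusted p 0.0704 without MII replicate 1, 0.0678 without MII replicate 2, 0.051 and 0.0576 without 2-cell control replicates 1 and 2; 0.00175 to 0.0704 over all 18 alternatives). The second was lost without MII replicate 1 (0.0936) or MII replicate 2 (0.0905), and passed in 14 of 18 alternatives (0.00152 to 0.124). From 2-cell to 4-cell control the adjusted p was 0.237, and 0.0101 without 4-cell control replicate 2, the library at 0 (0.0101 to 1 over 19 alternatives).

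Ythdf1 (ENSMUSG00000038848.14; chromosome 2, 180904377 to 180920949, minus strand), the reader best known for promoting translation, was listed at 0 in the MII and 2-cell libraries, all 6 of them. It had 0.165 and 29 FPKM in 4-cell controls, and in 4-cell Ago2 kd libraries it read 0 and 11.5 FPKM. In both 4-cell groups 1 library carried the signal and the other was at or near 0. The rise to the 4-cell control did not pass (adjusted p = 0.255 from the 2-cell control, limma); without 4-cell control replicate 1, the library at 0.165 FPKM, the adjusted p was 0.0458, and over 19 alternatives it ran from 0.0458 to 0.961. From the oocyte it was 0.0359 without that library (0.0359 to 0.952).

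The summed FPKM of the Ythdf genes was 112 and 56.6 in MII oocytes, 0 and 54.8 in 2-cell controls and 331 and 326 in 4-cell controls. After Ago2 knockdown it was 98.9 and 80.5 at the 2-cell and 16.8 and 149 at the 4-cell stage. Ythdf2 made up 59.7% and 21.9% of this sum in the oocyte libraries, with Ythdf3 as the rest, and 96.9% and 91.1% in the 4-cell controls. The oocytes held a mixture of Ythdf2 and Ythdf3 mRNA and the 4-cell controls mostly Ythdf2 mRNA, whereas the 2-cell controls differed between replicates from none to Ythdf2 alone. Among these genes only Ythdf3 was called in a stage comparison, so the calls cannot compare their directions.

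**Figure D2:**
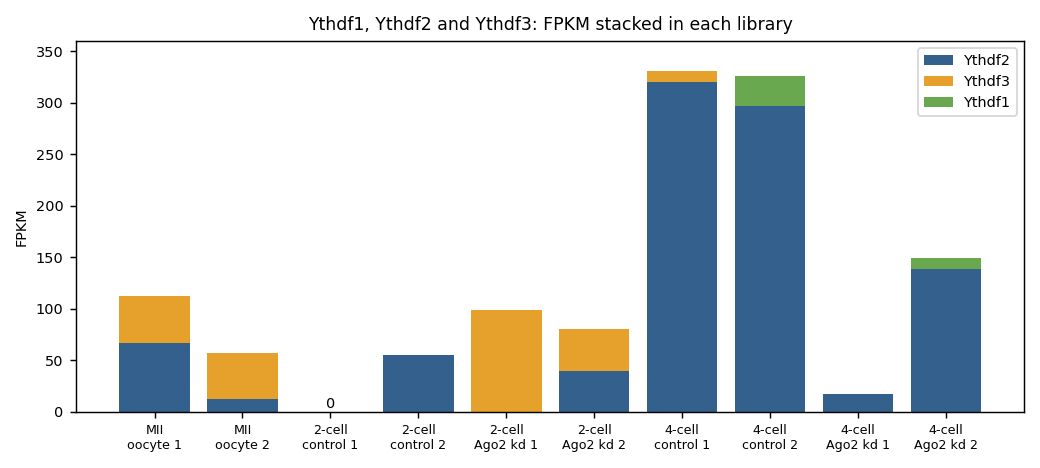
FPKM of Ythdf2, Ythdf3 and Ythdf1 stacked in each of the 10 libraries (vertical axis, linear and from 0). The 4-cell control bars reach 331 and 326 FPKM and are mostly Ythdf2, 2-cell control replicate 1 is at 0, and Ythdf3 makes up the whole of 2-cell Ago2 kd replicate 1.

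Since the 3 proteins are close relatives, the coding sequences of their longest annotated reading frames (GENCODE M21, stop codon left out; 1758 bases for Ythdf1, 1737 for Ythdf2 and 1788 for Ythdf3) were searched for identical runs, which bear on whether reads of one gene could be placed on another. The longest run was 22 bases, between Ythdf1 and Ythdf2, and it was 17 bases for each of the other pairs. The runs are in capitals with 30 bases on either side, read 5′ to 3′; the first pair shows bases 760 to 841 of the Ythdf1 and bases 694 to 775 of the Ythdf2 coding sequence, the second pair bases 791 to 867 of Ythdf2 and 827 to 903 of Ythdf3.
Ythdf1: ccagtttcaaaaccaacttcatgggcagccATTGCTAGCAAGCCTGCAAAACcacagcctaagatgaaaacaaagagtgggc
Ythdf2: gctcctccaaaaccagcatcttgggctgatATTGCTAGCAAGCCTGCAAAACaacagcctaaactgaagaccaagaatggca
Ythdf2: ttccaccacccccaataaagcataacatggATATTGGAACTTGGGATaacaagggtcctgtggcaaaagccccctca
Ythdf3: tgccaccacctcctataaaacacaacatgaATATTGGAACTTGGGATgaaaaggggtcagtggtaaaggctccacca
No 50-base stretch of Ythdf1 or Ythdf3 transcripts stood in any other annotated gene. Of the Ythdf2 stretches 7.49% did, in the genes Gm6823 and Gm8401, so the level of Ythdf2 is the less certain one by this measure.

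Of the 9 genes, 3 were called lower from MII oocyte to 2-cell control (Edc4, Pabpn1l and Ythdf3) and none higher, where 14.2% of all tested genes were called lower and 6.54% higher. From 2-cell to 4-cell control 1 was called lower (Dcp2; 17.5% of all genes) and 1 higher (Zfp36l2; 21.1%). From MII oocyte to 4-cell control 4 were called lower (Dcp1a, Dcp2, Pabpn1l and Ythdf3; 26.3%) and none higher (22%). At an unadjusted p below 0.05 the members numbered 3, 3 and 6 in these comparisons, where 32.7%, 46.9% and 54.7% of all tested genes passed. Dcp1a joined in the second and Edc4, lower, and Zfp36l2, higher, in the third, and in the first none was higher. In 7 of 9 genes both 2-cell controls were below the lower oocyte library and in 0 above the higher one (37% and 25% of all tested genes). From 2-cell to 4-cell control the groups lay apart with 2 genes lower and 5 higher (30.2% and 38.4%), and from MII oocyte to 4-cell control with 5 lower and 4 higher (39.2% and 36.9%). The library totals are unequal, and these counts moved in part with the scaling, a check chosen after seeing the data. With libraries scaled to equal medians the first count was 5 lower and 1 higher, Xrn1, with Zfp36l2 overlapping (28.4% and 32.8% of all tested genes). With quantile normalization it was also 5 lower and 1 higher, then Dcp2 (28.3% and 32.4% of all tested genes). The second count was 2 lower and 4 higher under both scalings, with Edc4 overlapping (32.5% and 35.3% of all tested genes with equal medians, 32.6% and 34.7% with quantile normalization). The third stayed at 5 lower and 4 higher with equal medians (37.4% and 38.9%) and was 5 lower and 3 higher with quantile normalization (38.2% and 37.6%). The median log2 difference of the 9 genes was -2.01, 1.44 and -2.11 in the order of these comparisons, beside -0.06, 0.24 and 0 for all tested genes. These comparisons share libraries with one another, and the knockdown comparisons use the same 2-cell and 4-cell controls, so their counts are not independent. With a mean above 2 FPKM in oocytes taken as the mark of a maternal mRNA, 6 of the 9 were maternal. Among these, Pabpn1l, Ythdf3 and Edc4 were called lower by the 2-cell stage and Dcp2 only after it, and the 2-cell controls of Dcp1a were at 18.3% and 10.2% of the oocyte mean before the gene was listed at 0. Ythdf2, the remaining one, was called at no step and had a mean of 39.7 FPKM in oocytes and 309 FPKM in 4-cell controls.

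**Figure D3:**
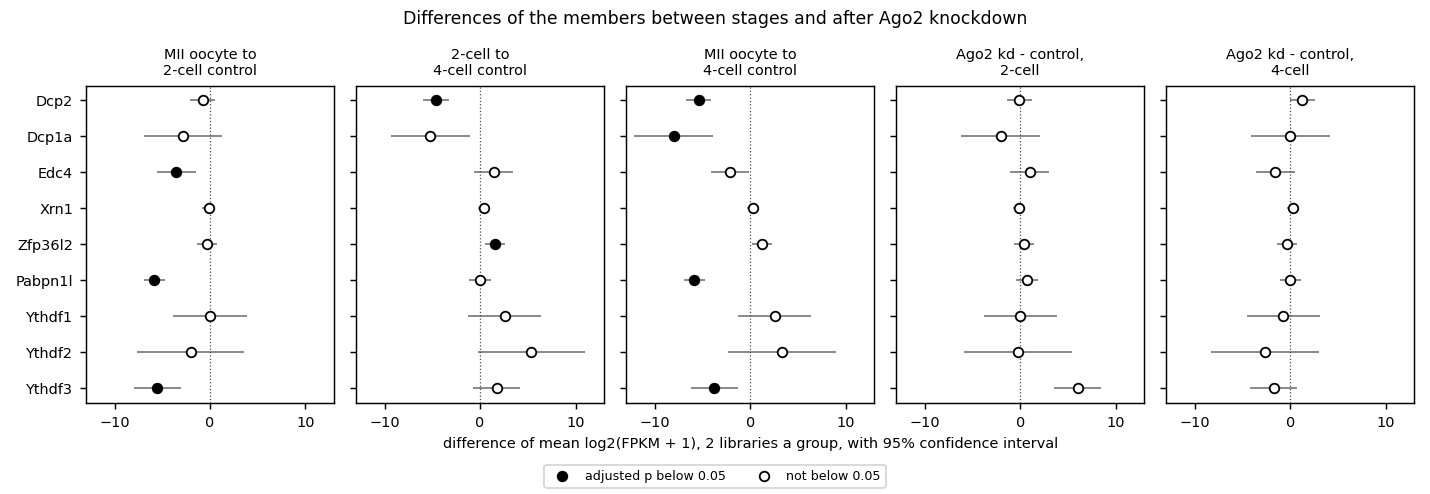
Difference of mean log2(FPKM + 1) between groups for each gene (points; filled where the adjusted p from limma was below 0.05) with its 95% confidence interval (lines), in 3 stage comparisons and at 2 stages of Ago2 knockdown. Filled points stand at 3, 2 and 4 genes in the stage comparisons and at none in the knockdown comparisons; a difference against a group listed at 0 depends on the 1 FPKM added before taking logs.

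After Ago2 knockdown none of the 9 genes passed the test at either stage (limma, Benjamini-Hochberg over all tested genes). In 2-cell embryos 0.55% of all tested genes were called, and in 4-cell embryos 4%. At an unadjusted p below 0.05, 1 member was different in 2-cell embryos (Ythdf3; 5.96% of all genes) and 0 in 4-cell embryos (15.4%). The 2-cell Ago2 kd libraries held 98.9 and 41 FPKM of Ythdf3, 221% and 91.6% of the oocyte mean, where both controls were listed at 0 (adjusted p = 0.0878, limma). In 4-cell Ago2 kd embryos it was listed at 0 in both libraries against 10 and 0 FPKM in the controls. The difference between the effects at both stages had an adjusted p of 0.0515, where 2.28% of all tested genes and 0 members were called; at an unadjusted p below 0.05 these were 13.4% and 1.

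For Ythdf3 the adjusted p at the 2-cell stage fell below 0.05 when libraries outside the 2-cell groups, which enter the common estimate of the spread, were left out: it was 0.0181 without 4-cell control replicate 1 and 0.0168 without 4-cell control replicate 2, and over 19 alternatives it ran from 0.0168 to 0.25. For the difference between stages it was 0.0165 and 0.0033 without these libraries, within a range of 0.0033 to 0.148. At the 4-cell stage it was 0.0394 without 4-cell control replicate 2, which left 1 control library, at 10 FPKM (0.0394 to 1 over 19 alternatives).

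No decapping gene passed the test after the knockdown. In 2-cell Ago2 kd libraries Dcp2 read 34.7 and 56.6 FPKM, a range around that of the controls (difference -0.10 log2 units, 95% confidence interval -1.43 to 1.23). At the 4-cell stage it had 1.86 and 7.1 FPKM, both above the controls at 0.626 and 1.44 FPKM, but the difference of 1.27 log2 units did not pass (95% confidence interval -0.06 to 2.6, adjusted p = 0.346, limma). Dcp1a was listed at 0 in all 4 4-cell libraries, and its 2-cell Ago2 kd libraries, at 77 and 0 FPKM, lay on either side of the controls (adjusted p = 1, limma). Without 2-cell Ago2 kd replicate 1, the library at 77 FPKM, the adjusted p was 0.0162 at this stage and 0.0206 for the difference between stages, within ranges of 0.0162 to 1 and 0.0206 to 0.874 over 19 alternatives. After the knockdown Edc4 had 14.6 and 4.03 FPKM at the 2-cell and 5.72 and 1.43 FPKM at the 4-cell stage, with 95% confidence intervals of the differences from -1.06 to 3.02 and from -3.63 to 0.45. For Xrn1, on the compressed scale of its low level, the intervals ran from -0.74 to 0.54 at the 2-cell and from -0.32 to 0.96 at the 4-cell stage.

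Ythdf2 read 16.8 and 138 FPKM in 4-cell Ago2 kd libraries, both below the controls at 320.3 and 297 FPKM. The difference of -2.64 log2 units had a 95% confidence interval from -8.26 to 2.99 and an adjusted p of 0.703 (limma), and the library at 16.8 FPKM was replicate 1, the one with the largest share of genes missing against its partner. At the 2-cell stage Ythdf2 read 0 and 39.4 FPKM after the knockdown and 0 and 54.8 FPKM in controls. The levels of Zfp36l2 were 1.39 and 2.57 FPKM in 2-cell and 4.18 and 4.12 FPKM in 4-cell Ago2 kd libraries, with intervals from -0.65 to 1.43 and from -1.38 to 0.69. The groups did not overlap for 3 of 9 genes in 2-cell embryos, Xrn1 lower and Zfp36l2 and Ythdf3 higher, where 14.7% of all tested genes were lower and 14.4% higher without overlap. In 4-cell embryos they did not overlap for 3 of 9 either, beside 16.9% lower and 20.1% higher of all tested genes. Edc4 and Ythdf2 were lower and Dcp2 higher. This 4-cell set moved with the scaling. With libraries scaled to equal medians Zfp36l2 was lower as well (19.4% lower and 17.9% higher of all tested genes). With quantile normalization Ythdf2 alone was lower, and Dcp2 and Xrn1 were higher (13.6% and 23.1%). The 2-cell set was the same under both scalings.

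Replicates of 3 members were far apart. Among the 19 pairs of replicates with more than 10 FPKM in 1 library, the other library was listed at 0 in 4 (21.1%): Dcp1a in 2-cell Ago2 kd embryos, Ythdf1 in 4-cell Ago2 kd embryos, and Ythdf2 in both 2-cell groups. Over all tested genes this held for 6.64% of such pairs, without a test of the difference. Altogether 26 of the 90 values of the 9 genes were listed at 0 (28.9%, against 20.7% for all tested genes). A value of 0 is therefore given as listed, not as absence of the mRNA.

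The close relatives of the members ranged from listed near 0 to abundant. Dcp1b, the paralog of Dcp1a, was at or below 0.0618 FPKM in all 10 libraries. Xrn2, the nuclear counterpart of Xrn1, had 63.6 and 1.52 FPKM in MII oocytes and 44.6 and 1.8 FPKM in 4-cell controls, with replicates far apart in both groups. Zfp36l1 stayed at or below 0.669 FPKM. Pabpn1, the nuclear poly(A)-binding protein related to Pabpn1l, had 27.5 and 56.8 FPKM in MII oocytes, 66.3 and 77 FPKM in 2-cell controls and 79.3 and 33 FPKM in 4-cell controls, and thus remained where Pabpn1l was listed at 0. Of the YTHDC readers, Ythdc1 had 17.1 and 0.298 FPKM in MII oocytes and at most 1.78 FPKM elsewhere, and Ythdc2 stayed at or below 0.581 FPKM.

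The rest of the pathway was read from 5 lists that hold 95 genes besides the members, of which 81 had a row and 61 were tested. From MII oocyte to 2-cell control 14 of these were called lower and 1 higher (14.2% and 6.54% of all tested genes; limma, as above). From 2-cell to 4-cell control 9 were lower and 14 higher (17.5% and 21.1% of all tested genes). From MII oocyte to 4-cell control 18 were lower and 11 higher (26.3% and 22%). The same shares stand beside the counts by list that follow. Among the 15 tested genes of decapping and 5′ decay, 4 were lower at the 2-cell stage and none higher; from the 2-cell to the 4-cell stage 5 were lower and 2 higher. Eif4enif1, which binds the cap-binding protein eIF4E in P-bodies, had 147 and 123 FPKM in MII oocytes, 35 and 46.1 FPKM in 2-cell controls and 1.45 and 2.46 FPKM in 4-cell controls, and was called lower at each step (adjusted p = 0.0399 and 0.00106). Lsm14a, a P-body component, fell by 5.86 log2 units to the 2-cell stage (SE 0.63, adjusted p = 0.00125), Lsm14b, its relative, fell by 2.83 (SE 0.48, adjusted p = 0.00714), and Nudt16, another decapping enzyme, fell by 1.77 (SE 0.34, adjusted p = 0.0118). Dcps, which clears the cap left by 3′ to 5′ decay, kept 7.07 and 8.91 FPKM in 2-cell controls and was listed at 0 in all 4-cell libraries, whereas Lsm4, of the ring that binds deadenylated mRNA ends, was listed at 0 up to the 2-cell stage and had 24.7 and 13.3 FPKM in 4-cell controls.

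Among the 13 tested m6A genes, 3 were lower and 1 higher at the 2-cell stage (14.2% and 6.54% of all tested genes). From there to the 4-cell stage none was lower and 1 was higher (17.5% and 21.1%). 1110037F02Rik, the row of the writer subunit Virma, had 34 and 34.5 FPKM in MII oocytes and was listed at 0 in every embryo library (adjusted p = 9.15e-05 to the 2-cell control, limma). This row passed the filter only through the MII libraries. The groups listed at 0 add no spread to its estimate, so the p-value is given with that limit. Igf2bp2, a reader that stabilises marked mRNA, fell by 4.17 log2 units (SE 0.46, adjusted p = 0.00142), and Igf2bp3, its relative, fell by 2.62 (SE 0.73, adjusted p = 0.0462). Cbll1, another writer subunit, rose by 2.26 (SE 0.62, adjusted p = 0.0423). Hnrnpa2b1, a nuclear RNA-binding protein, rose by 3.03 log2 units from the 2-cell to the 4-cell control (SE 0.39, adjusted p = 0.00135).

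Of the 17 tested decay adaptor and 3′ end genes, 3 were lower at the 2-cell stage, Zfp36, Tob1 and Btg4 (14.2% of all tested genes). From there to the 4-cell stage 3 were lower and 4 higher (17.5% and 21.1%). Btg4, the adaptor that ties the deadenylase to maternal mRNA and the partner of PABPN1L, had 14252 and 15377 FPKM in MII oocytes, 8212 and 7265 FPKM in 2-cell controls and 25.5 and 23.5 FPKM in 4-cell controls. It fell by 0.94 log2 units at the first step (SE 0.16, adjusted p = 0.00694) and fell by 8.25 at the second (SE 0.16, adjusted p = 1.47e-06), so its mRNA was still abundant at the stage at which Pabpn1l was listed at 0. From the 2-cell to the 4-cell control Elavl2, which binds AU-rich elements, fell by 4.98 (SE 0.88, adjusted p = 0.00508, limma). Pabpc1l, known as an oocyte poly(A)-binding protein, fell by 4.08 (SE 1.1, adjusted p = 0.0251). Here Pabpc1l was low in MII oocytes, at 0.544 and 0.515 FPKM, and read 20.8 and 13 FPKM in 2-cell controls. That earlier difference did not pass (adjusted p = 0.0659, limma). Hnrnpd, also known as AUF1, rose by 1.89 from MII oocyte to 4-cell control (SE 0.42, adjusted p = 0.00919). Zfp36, the founding relative of Zfp36l2, fell by 1.71 to the 2-cell stage (SE 0.32, adjusted p = 0.0108) and rose by 1.49 to the 4-cell stage (adjusted p = 0.0108).

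After the knockdown none of the 61 genes passed at the 2-cell stage, where 0.55% of all tested genes were called. At the 4-cell stage 2 were lower, Dis3 and Celf1, and 1 was higher, Lsm5, another subunit of the Lsm ring; 2.77% and 1.23% of all tested genes were. Celf1, which binds GU-rich elements, had 0.989 and 0.691 FPKM against 3.44 and 4.27 FPKM in controls (difference -1.40 log2 units, SE 0.28, adjusted p = 0.0429). Lsm5 had 5.34 and 4.07 FPKM against 1.18 and 0 FPKM (adjusted p = 0.0361).

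**Figure D4:**
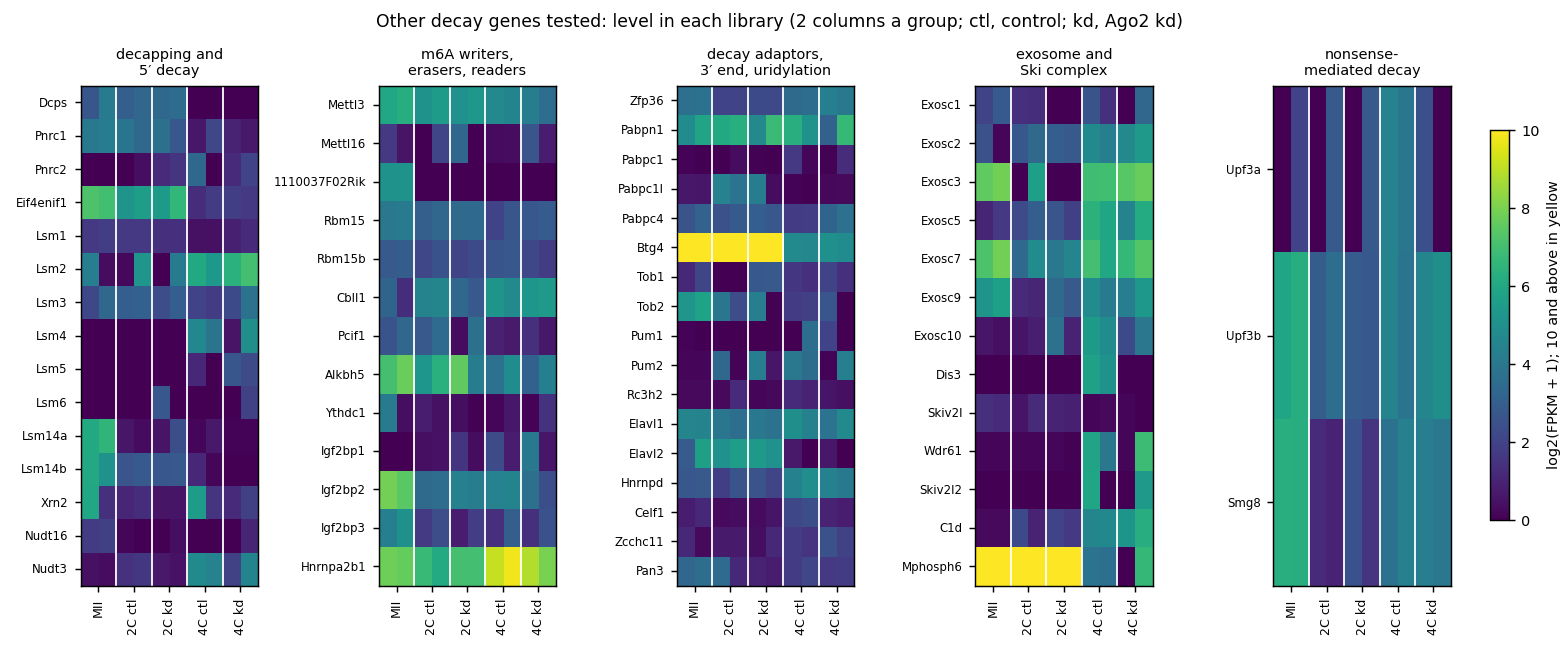
Level of the 61 other tested decay genes in the 10 libraries (columns, 2 a group) as log2(FPKM + 1) (colour, from dark at 0 to yellow at 10 and above), in 5 panels by list. Btg4 and Mphosph6 are yellow in all MII and 2-cell columns and darker in the 4-cell columns, and Dis3 is above 0 in the 4-cell control columns alone.

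For each member the 2 tested genes with the most similar pattern were found by Pearson's r of log2(FPKM + 1) over the 10 libraries, which share group and, for some genes, the same libraries at 0. Here r is given as a description. Nae1 (r = 0.997) and Nit2 (r = 0.995) were nearest to Dcp1a, and both were also at or near 0 in 2-cell Ago2 kd replicate 2, at 0.426 and 0 FPKM, beside 96.6 and 26.6 FPKM in replicate 1. Dhrs1 and Siva1 were nearest to Dcp2 (both r = 0.992), Steap4 and Sox8 to Pabpn1l (both r = 0.998), and Khnyn and Tmem120b to Ythdf1 (both r = 0.999). Tmem120b had 29.3 FPKM in 4-cell control replicate 2 and 0.151 FPKM in replicate 1, the same split as Ythdf1. Pttg1ip (r = 0.957) and Kdm1a (r = 0.927) were nearest to Ythdf2: Pttg1ip had 3.97 and 80.3 FPKM in the 2-cell controls, and Kdm1a had 12.3 and 1.42 FPKM in the MII libraries, splits on the same side as those of Ythdf2. Kctd13 (r = 0.916) and Hace1 (r = 0.915) were nearest to Ythdf3, and Hace1 was likewise listed at 0 in both 2-cell controls and had 4.94 and 6.49 FPKM after the knockdown. For Edc4 these were Fbxo21 (r = 0.935) and Ap1ar (r = 0.926), for Xrn1 4933406J08Rik (r = 0.964) and Pomp (r = 0.963), and for Zfp36l2 Gm24366 (r = 0.962) and Gm13131 (r = 0.952). Between the members themselves r ran highest for Dcp1a and Dcp2 (0.78) and lowest for Dcp2 and Zfp36l2 (-0.87), over the same 10 libraries.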

How the data were processed

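The authors sequenced RNA of 10 libraries, 2 in each of 5 groups given by the labels. Per the labels and the methods, the authors trimmed reads with Trim Galore, aligned them to GRCm38 (mm10 in the submitters' processing notes) with HISAT2 2.1.0 and computed FPKM with StringTie; the deposited FPKM hold 1 value per gene name and library for 21437 rows. How several transcripts or identifiers became 1 row, and why the MII values carry more digits, is not given in the sources used here. Read counts that the authors made with HTSeq-count were not used here; depth and counting error are therefore unknown. FPKM were analysed as log2(FPKM + 1) in R 4.3.3 with limma 3.58.1: 1 mean per group, all 10 libraries (5 residual degrees of freedom), variances moderated with a trend (median prior degrees of freedom 1.89), 8726 genes reaching 1 FPKM in 2 or more libraries, two-sided tests, and Benjamini-Hochberg adjustment over all tested genes with a threshold of 0.05. A fold change on this scale understates that of low genes. The script was tested on simulated data with known changes. These values were drawn from normal distributions without values listed at 0, so the check does not cover genes with such zeros. The labels do not say that replicates came from separate collections, so p-values measure the spread between these libraries, which may be technical.

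The members, the lists of other decay genes and the markers were chosen with earlier results of these data known. Named besides the members were up to 3 called genes with the largest change per list and comparison, the close relatives of the members, and the 2 genes most alike in pattern. Gene positions and transcripts were taken from GENCODE M21 (GRCm38), which matched 20460 of the 21437 names, and promoter sequences from RefSeq (GRCm38.p6). Alternatives were a pseudocount of 0.1, no filter, a minimum of 5 FPKM, scaling to equal medians, quantile normalization, the replicate number as a block, only the groups compared, no variance trend, each library left out in turn and, chosen after seeing the data, a fit without the MII libraries. Figures were drawn with matplotlib 3.10.9.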

Additional observations from a re-analysis of the deposited data

Results flagged for a closer look

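1 gene of the decay lists met the criterion for a closer look, a passed test of the difference between its Ago2 knockdown effects at both stages. Dis3, the catalytic subunit of the exosome, the complex that degrades RNA from the 3′ end, was listed at 0 in all MII and 2-cell libraries. It had 51.7 and 34.5 FPKM in 4-cell controls and was listed at 0 in both 4-cell Ago2 kd libraries. The adjusted p was 0.00204 for the difference between stages and 0.00022 at the 4-cell stage (limma). With both 2-cell groups at 0, these are the same difference, -5.435 log2 units. The test between stages therefore adds nothing to the 4-cell test. Dis3 passed the filter only through its 4-cell control libraries, and the groups listed at 0 add no spread to its estimate. Both 4-cell Ago2 kd libraries were at 0, replicate 2 as well as replicate 1, in which 13.7% of the genes above 10 FPKM in its partner were below 0.1 FPKM; the part of missing values in this result was not tested. Sums of stage markers differed in these 4-cell Ago2 kd libraries too. The summed FPKM of 2-cell markers was 25.1 and 32 against 7.21 and 2.47 in 4-cell controls. That of markers of the 4-cell and later stages was 170 and 88.2 against 236 and 307. The later marker Tead4 was likewise at 0 in both, whereas Nanog, another later marker, read 1.92 and 16.6 FPKM against 6.43 and 5.2 in controls. The authors report Tead4 as lowered by Ago2 knockdown, so by Tead4 stage and knockdown cannot be told apart. The part of embryo stage was not tested. Groups of 2 libraries are too small for a test of single outlying samples.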

How the results depend on the processing

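The members called numbered 3, 2 and 4 in the stage comparisons and 0 in each knockdown comparison. From 2-cell to 4-cell control 1 member was called with no filter, with quantile normalization and, added after seeing the data, in a fit without the MII libraries. The difference of the knockdown effect between stages gave 1 (Ythdf3) with a minimum of 5 FPKM, with scaling to equal medians and with quantile normalization, and quantile normalization also gave 1 (Ythdf3) at the 2-cell stage; the cause was not tested. Leaving out each library in turn gave 1 to 4 members from MII oocyte to 2-cell control, 1 to 3 from 2-cell to 4-cell control, 3 to 5 from MII oocyte to 4-cell control and 0 to 1 in each knockdown comparison. The lowest counts came without either MII library or without 2-cell control replicate 2 in the first comparison and without any of the MII or 2-cell control libraries in the second. The counts of 1 under the knockdown came without 4-cell control replicate 1 or 2, or without 2-cell Ago2 kd replicate 1; a group left with 1 library was assumed to vary like the others. Of 996 single differences under alternatives, 24 lost and 26 gained a call and none reversed a called sign; 18 more turned in sign with an unadjusted p of 0.05 or more in both fits. Xrn1 and Zfp36l2 gave no value with a minimum of 5 FPKM.

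With the replicate number as a block the counts of members were 3, 2, 4, 0, 0 and 0, and no call on a member changed. Deviations of same-numbered libraries correlated between -0.093 and 0.092 over 10 pairs of groups, highest between 2-cell control and 2-cell Ago2 kd. Such a correlation over all tested genes cannot decide whether same-numbered libraries were prepared together. Single genes could still split alike, as Ythdf2 did with replicate 1 listed at 0 in both 2-cell groups. Over all tested genes the calls ranged from 1034 to 1937 (1811 in the fit reported), 2371 to 3624 (3370) and 3146 to 4466 (4222) in the stage comparisons. For the knockdown they ranged from 0 to 105 (48) at the 2-cell stage, where the block gave 23 and no filter 95, from 0 to 663 (349) at the 4-cell stage, where a minimum of 5 FPKM gave 227, and from 141 to 482 (199) for the difference between stages. The MII to 2-cell count was 1034 and 1096 without MII replicates 1 and 2 and 1152 without 2-cell control replicate 2; the 2-cell knockdown count was 82 and 105 without 2-cell Ago2 kd replicates 1 and 2; and without 4-cell Ago2 kd replicate 2 the 4-cell count was 663 and that of the difference 482. Both counts of 0 come from fits with only the groups compared, which hold fewer libraries. Depth is unknown, so which levels near 0 could be measured is unknown too.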

Other observations

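The exosome degrades RNA from the 3′ end, in the cytoplasm with the Ski complex. Of 13 tested genes of these complexes and their cofactors, 6 were called higher and 1 lower in 4-cell than in 2-cell controls, where 21.1% and 17.5% of all tested genes were, and the median log2 difference was 3.01 beside 0.24 for all tested genes. The 6 were Exosc5, Exosc7, Exosc9, Exosc10, Dis3 and the cofactor C1d. No Ski complex gene was called: Skiv2l had 0.485 and 1.28 FPKM in 2-cell and 0.133 and 0.207 FPKM in 4-cell controls (adjusted p = 0.094, limma), and Wdr61 had an adjusted p of 0.0933 for a difference of 4.75 log2 units. Exosc10, the nuclear exosome nuclease, had 0.478 and 0.788 FPKM in 2-cell controls and 43 and 28 FPKM in 4-cell controls (4.46 log2 units, SE 0.95, adjusted p = 0.0103, limma), and Exosc5, a core subunit, 3.93 and 6.97 against 85.2 and 59.6 FPKM. Exosc7 and Exosc9, also of the core, had fallen before, by 3.43 and 4.27 log2 units from MII oocyte to 2-cell control (adjusted p = 0.00795 and 0.00178). Mphosph6, an exosome cofactor, was the one called lower: it had 2043 and 1221 FPKM in MII oocytes, 2317 and 2584 FPKM in 2-cell controls and 13.1 and 11.7 FPKM in 4-cell controls (adjusted p = 0.0167 for the last step). These lists were not tested as sets.

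Of the nonsense-mediated decay genes 9 had a row and 3 were tested. Smg8, a subunit of the SMG1 kinase complex, had 76.9 and 74.2 FPKM in MII oocytes, 1.26 and 0.998 FPKM in 2-cell controls and 12.7 and 19.7 FPKM in 4-cell controls, lower and then higher (adjusted p = 0.000536 and 0.00258, limma). Upf3b, which links exon junctions to decay, had 58.9 and 73.5 FPKM in MII oocytes and was lower by the 2-cell stage, by 2.78 log2 units (SE 0.41, adjusted p = 0.0041).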
